A study of Equus caballus with 11 samples.

Results

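In heart, lung and liver of horses, 1598 CpGs more than 2 kb from any CpG-dense window, as defined below, were unmethylated in every library. They were 2.34% of the 68147 CpGs read 10 or more times in all 11 libraries, and 3123176 CpGs were listed in at least one. The members were chosen by their measured values. Each had 10 or more reads and a methylation level (percent of reads with C) of 10% or less in each library, lay more than 2 kb from any dense window and had 2 or more other listed CpGs within 100 bp. A dense window was a fixed stretch of 1000 bp with 30 or more listed CpGs, of which there were 15390 on chromosomes 1 to 31. Coordinates are those of EquCab3.0, the build the authors mapped to. No gene, exon or promoter was assigned to any position, because no annotation of that build was used here, and no sequence is shown, as a genome of that build was likewise not used.

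Cytosine methylation in mammals sits mainly on CpG dinucleotides and is the usual state of the bulk of them. The known exception is the CpG island, a short stretch rich in CpGs, often at a gene's start, that is kept free of methylation in most cell types. CpGs outside islands that carry no methylation are usually linked to DNA that is bound by proteins, such as enhancers and small promoters, and these often differ between tissues.

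The study compared methylation among 3 tissues by RRBS, or reduced representation bisulfite sequencing. The method reads the ends of DNA fragments cut at CCGG after a bisulfite step, which leaves methylated cytosines as C and lets the others appear as T. There were 4 libraries of heart (left ventricle), 4 of lung (right lung, caudal lobe) and 3 of liver (right lobe), from horses numbered 1 to 4, and liver of horse 3 was not analysed here. All 4 animals were healthy stallions of a cold-blooded type, between 1 and 2 years old, with no treatment or genetic change, and each library holds the mixed cells of a piece of tissue. A level in such tissue cannot tell fewer methylated cells from less methylation per cell, and the labelled tissues could not be checked against markers. Liver of horse 2 had the fewest reads at listed autosomal positions, 3255257, and liver of horse 1 the most, 25109840. At the members the median depth was 47, 42, 26 and 23 reads in heart of horses 1 to 4, 37, 42, 20 and 26 reads in lung, and 47, 15 and 31 reads in liver of horses 1, 2 and 4. Depth therefore differed most in liver of horse 2, where 77.5% of the members had under 20 reads.

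The place of the members among all unmethylated CpGs was examined first. Of the 68147 CpGs read in all libraries, 5200 met the level limit in every library. Of these, 2394 lay in dense windows, 1016 lay within 2 kb of one, 192 lay farther away with fewer than 2 neighbours, and the members made up the other 30.7%. The chance of a CpG being always unmethylated differed by place. It was 23.5% of 10175 CpGs in dense windows, 22.3% of 4547 within 2 kb, 4.78% of the 33403 at the members' place and 0.959% of the 20022 far CpGs with few neighbours. Most CpGs at the members' place were methylated. Their mean level over the libraries was 80% or more for 54.4%, and it was 10% or less for 6.75%, with only 1.98% between 10% and 20%. Above 20% the share rose in each step of 10 points, from 2.15% between 20% and 30% to 29.9% between 90% and 100%. The low class was thus a peak with no gap between it and the rest, and the members were drawn from it.

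More than 2 kb from dense windows, the members followed the local number of CpGs. Among windows with 1 to 4 listed CpGs, 107 of 7304 CpGs (1.46%) were members. The share was 1.75% of 12672 with 5 to 9 listed CpGs, 4.45% of 6672 with 10 to 14, 9.78% of 3488 with 15 to 19, 16.9% of 2005 with 20 to 24 and 23.1% of 1262 with 25 to 29. It rose in each step of window count, and just under the limit for a dense window it was close to the 23.5% found inside such windows. The median member had 17 listed CpGs in its window and 5 within 100 bp, against 8 and 3 for the other CpGs of the same place and depth. Distance to a dense window showed no such order. The share was 5.43% at 2 to 5 kb, 4.60% at 5 to 20 kb, 4.97% at 20 to 100 kb, 4.40% at 100 to 500 kb and 5.28% beyond 500 kb. Median distances were likewise near each other, at 50763 bp for members and 53839 bp for the rest, as were median reads summed over the libraries, at 355 and 348. These shares describe the CpGs listed, and a CpG that RRBS did not read is not in the count. A dense window set at 20 CpGs would leave 712 members, and one set at 40 would give 2568. Because the windows were fixed, a dense stretch split between 2 windows could miss the limit. Of 469 CpGs with 30 or more other listed CpGs within 500 bp, 161 (34.3%) were members, which was 10.1% of all members. The members were thus outside dense windows, but not all in CpG-poor DNA.

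**Figure D1:**
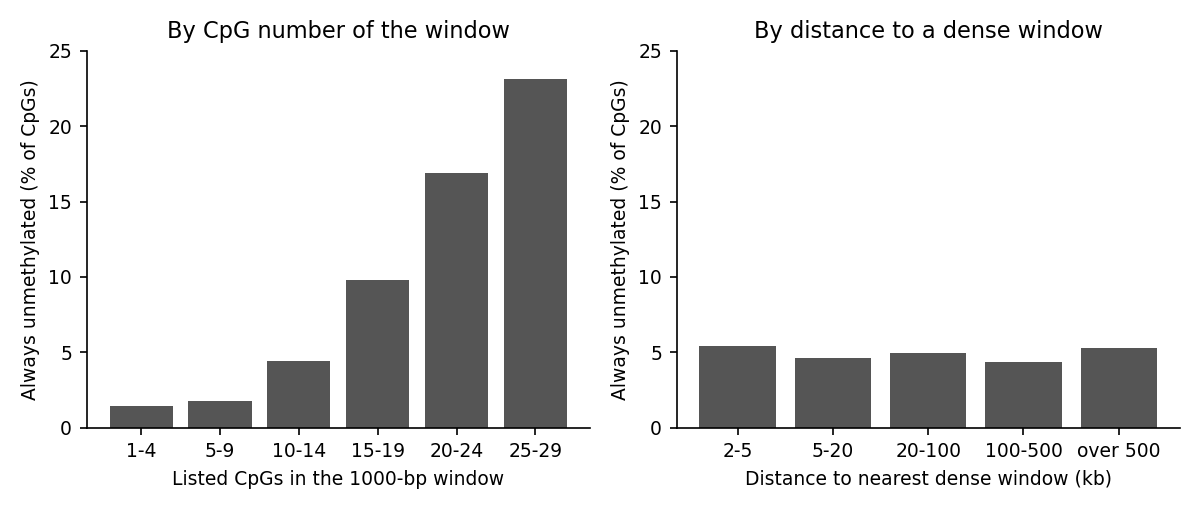
Share of CpGs that were always unmethylated (%), among CpGs over 2 kb from a dense window, with 2 or more neighbours and 10 or more reads in all 11 libraries, by the number of listed CpGs in their 1000-bp window (left) and by distance to the nearest dense window in kb (right). The left bars climb from 1.46% to 23.1%, while the right bars stay between 4.40% and 5.43%.

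Members came in runs. Joining members no more than 200 bp apart gave 608 regions, of which 208 held a single member, 284 held 3 or more and 82 held 5 or more. The 284 regions held 1158 members (72.5%) and had a median length of 53 bp, and the longest of all regions spanned 275 bp. CpGs of such a short stretch can share reads, so neighbouring members are not independent observations. Of the 400 regions with 2 or more members, 342 had no other CpG of full depth within their span that failed the level limit. In 224 regions (36.8%) the window held 20 or more listed CpGs, and in 161 (26.5%) it held fewer than 10. There were 201 regions (33.1%) more than 100 kb from any dense window and 13 more than 1 Mb away. Other CpGs of the same place were about as far. Of the 33403 CpGs there, 9440 lay at 100 to 500 kb and 1836 beyond 500 kb, as did 415 and 97 of the 1598 members. This distance was therefore not a trait of the members.

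The 8 regions with the most members are given with their values, as a description, because the rule fixed their levels. Reads of a region were summed over its members, so a read that covered several members was counted at each. For every region named here and below, the intervals are therefore too narrow and the floors too low. The region at chr3:78087587-78087713 had 10 members, with 61 methylated of 5625 reads (1.08%, 95% exact binomial interval 0.831 to 1.39). Its level was 0.876%, 0.513%, 0.907% and 0.316% in heart of horses 1 to 4, 0.585%, 0.870%, 2.27% and 0.750% in lung, and 1.39%, 1.42% and 2.51% in liver of horses 1, 2 and 4. Lung of horse 3 stood above the other lung libraries, and the liver values lay above all heart values. The region at chr28:24035271-24035321 also had 10 members and a level of 0.374% (0.209 to 0.616). Heart was at 0.182%, 0.401%, 0.542% and 1.04%, lung at 0.312%, 0.208%, 0.559% and 0.882%, and liver at 0%, 0% and 0.287%. By the summed reads, the 2 libraries at 0 allow levels of up to 0.612% and 2.00% (3 reads of the total). Separate reads would allow more. The tissues overlapped.

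Regions with 7 to 9 members had levels of the same order. The region at chr8:83802906-83802970 had 9 members and a level of 0.954% (0.680 to 1.30), with heart at 0.180%, 0.769%, 0% and 0%, lung at 1.53%, 0.676%, 4.58% and 1.36%, and liver at 1.12%, 2.12% and 0%. Its highest value was again in lung of horse 3. The region at chr18:72304002-72304062 had 9 members and 8 methylated of 3040 summed reads (0.263%). It was at 0 in 7 libraries, all 4 of heart among them, where counts of 0 allow 0.619% to 3.33% or more. The remaining values there were 0.815% and 0.483% in lung of horses 1 and 2 and 0.278% and 0.549% in liver of horses 1 and 4. Its window held only 9 listed CpGs. The window of chr27:37571295-37571471 held 10, and those of the rest of the 8 regions held 18 to 29. At chr5:44380804-44380980 (9 members, 0.442%) 6 libraries were at 0, and at chr4:66105450-66105484 (8 members, 0.383%) and chr1:41266165-41266217 (7 members, 0.344%) 2 and 4 were. The eighth, at chr27:37571295-37571471 (7 members, 0.328%), is described with the deeply read members.

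The regions with 3 or more members that lay farthest from a dense window had levels between 0.390% and 2.18%. At chr9:59472357-59472421, 2981.58 kb from the nearest dense window, 5 members had 39 methylated of 1785 reads (2.18%, 1.56 to 2.97). Heart was at 0.515%, 0.930%, 2.31% and 0.714%, lung at 3.69%, 3.16%, 4.55% and 1.94%, and liver at 2.93%, 3.33% and 0.625%, so the lung range and the heart range overlapped only through heart of horse 3. Its interval lay above those of the 8 regions with the most members, though all of these intervals are too narrow. The regions at chr27:29387396-29387441 (3 members, 1.48%), chr2:93801685-93801783 (5 members, 1.01%) and chr17:47337596-47337646 (5 members, 0.390%) lay 1837 kb, 1256 kb and 1133 kb away. Far from a dense window did not mean few CpGs. At chr27:29387396-29387441 the window held 27 listed CpGs, and 48 were listed in the region or within 1000 bp of it.

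Members were spread over all 31 chromosomes, but unevenly. The share of CpGs of the same place and depth that were members ran from 2.09% on chromosome 16 to 15.2% on chromosome 20, where 141 of 927 CpGs in 52 regions were members. Chromosomes 11 (8.90%) and 5 (8.84%) followed, and without chromosome 20 the share over the genome was 4.49%. On chromosome 20 the members gathered in one stretch, chosen here after the values were seen. Between 24000001 and 31000000 bp, 87 of 162 CpGs (53.7%) in 31 regions were members, against 54 of 765 (7.06%) on the rest of the chromosome. The contrast was also present at like density. Among windows with 15 or more listed CpGs, 63 of 90 CpGs (70.0%) in the stretch were members, against 909 of 6665 (13.6%) elsewhere. The 75 other CpGs of the stretch averaged 41.8%, and the stretch had 34 dense windows of its own.

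The level left at the members was low in all libraries. Averaged over members, it was 0.739%, 0.800%, 0.798% and 0.753% in heart of horses 1 to 4 (mean 0.772% ± 0.0314 SD, n = 4). In lung it was 1.12%, 0.953%, 1.14% and 0.864% (1.02% ± 0.133, n = 4), and in liver of horses 1, 2 and 4 it was 1.01%, 0.885% and 0.776% (0.890% ± 0.116, n = 3). All heart values lay below all lung values, and liver had its lowest value in the heart range and the other two in the lung range. No test is given, since these levels chose the CpGs. The always unmethylated CpGs of dense windows had like values, 0.765% ± 0.0611 in heart, 1.09% ± 0.228 in lung and 0.905% ± 0.100 in liver. Mitochondrial CpGs, listed in the same files and often taken as largely unmethylated, gave 0.350%, 0.355%, 0.336% and 0.373% of reads with C in heart, 1.35%, 1.69%, 0.613% and 0.713% in lung and 1.20%, 0.904% and 1.01% in liver. The part of unconverted cytosines in the levels at the members was not tested.

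**Figure D2:**
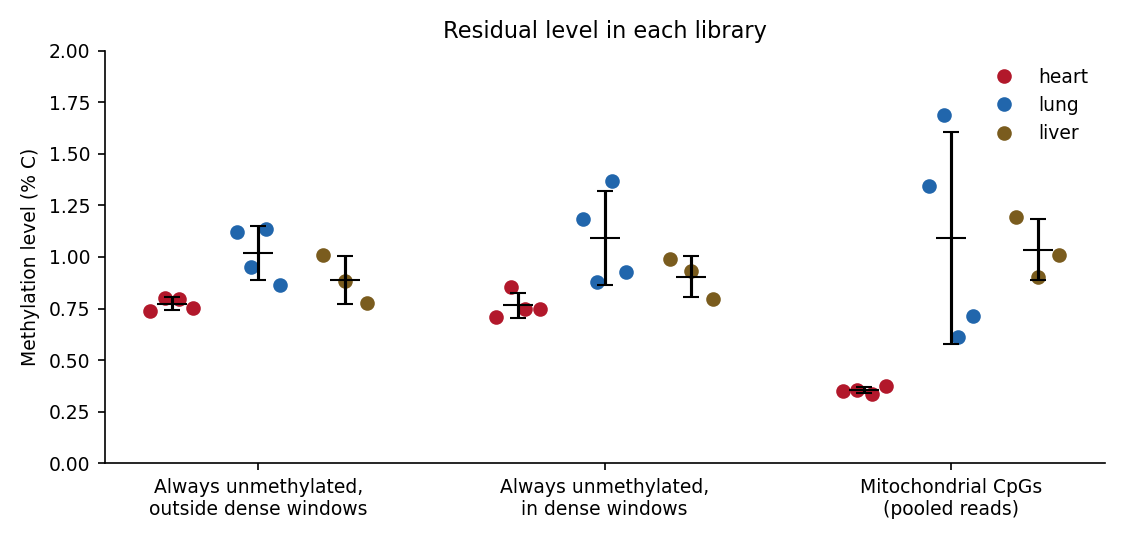
Level (% C) in each library (points) with tissue mean ± SD (bars; n = 4 heart, 4 lung, 3 liver), averaged over the 1598 members, over the 2394 always unmethylated CpGs in dense windows, and as pooled reads over mitochondrial CpGs. Heart lies at 0.739% to 0.800% at the members and lung at 0.864% to 1.14%, and mitochondrial reads in heart lie near 0.35%.

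Single members differed little within this low range. The median member had 0.512% methylated reads summed over the libraries and the highest 7.34%. In all, 316 members (19.8%) had no methylated read in any library. Their median total was 300.5 reads, for which a count of 0 allows a level of up to 0.998%, and the smallest total was 177 reads, which allows 1.69%. A further measure of spread was how many libraries showed a methylated read at a member, with a median of 2 and with 63 members showing one in 9 or more. Between 66.5% and 85.5% of the members were at 0 in a given library. Reads covered both strands for 236 members (14.8%), against 24.5% of the other CpGs of the same place, and at these members the forward strand was at 0.599% and the reverse strand at 0.925%.

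The limits of the rule cut through values that were close together. The 130 members whose highest library was above 9% averaged 1.84% in the other 10 libraries. Just outside, 268 CpGs exceeded 10% in exactly 1 library, where their median level was 13.2%, and they averaged 2.51% in the other 10. In 80 of them that library had 2 methylated reads. Lung of horse 3 was the library that kept out the most, 78 of the 268 (29.1%), followed by liver of horse 2 with 30 (11.2%), and the others kept out 10 to 23 each. Far more CpGs, 29306, exceeded 10% in all 11 libraries, and 289 did so in 2 or 3. Across the distance limit, 57 always unmethylated CpGs at 1501 to 2000 bp averaged 1.15% and 33 members at 2001 to 2500 bp averaged 1.24%. Across the neighbour limit, 1.22% of CpGs with 1 neighbour and 1.95% of those with 2 were always unmethylated. Without liver of horse 2, whose depth limited the CpGs that could be counted, the same rule gave 2686 members.

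The share of CpGs low in 10 libraries that were also low in the eleventh was then counted. CpGs were chosen by the same rule in 10 libraries and read in the eleventh. In the left-out library, 98.9%, 99.4%, 98.6% and 98.9% were at 10% or less in heart of horses 1 to 4, 98.6%, 99.3%, 95.3% and 98.7% in lung, and 98.9%, 98.2% and 98.8% in liver of horses 1, 2 and 4 (mean 98.5% ± 1.10 SD over 11). Among all CpGs of that place the share was 7.30% to 8.29%. No CpG was above 50% in the library left out, and lung of horse 3 was the lowest. In each case the CpGs at 10% or less were the 1598 members. The others were the CpGs, described above, that exceeded 10% in that library alone. The shares thus restate those counts and are no separate support. CpGs of one read are not independent, so these shares carry no test.

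**Figure D3:**
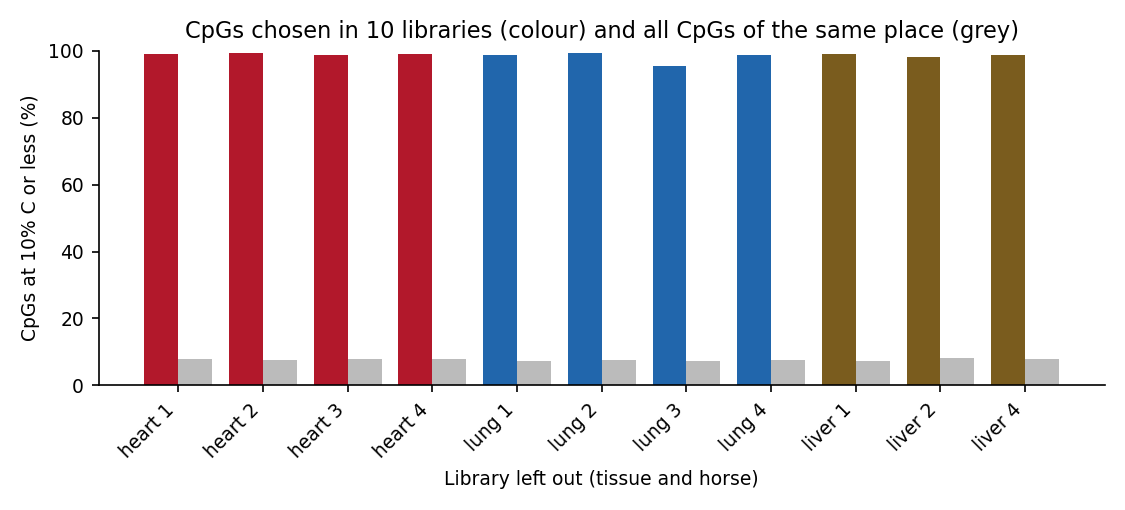
Share of CpGs (%) at 10% C or less in the library on the horizontal axis, for CpGs chosen by the rule in the other 10 libraries (coloured by tissue) and for all CpGs of the same place and depth (grey). Coloured bars reach 95.3% to 99.4% and grey bars 7.30% to 8.29%.

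A whole tissue was left out as well, which asks whether a CpG unmethylated in 2 tissues was so in the other one. Of 1712 CpGs chosen in lung and liver, 1598 (93.3%) were at 10% or less in all 4 heart libraries, and 9 (0.526%) were above 10% in all 4. Of 1778 chosen in heart and liver, 89.9% passed in all 4 lung libraries and 7 (0.394%) exceeded the limit in all 4. Of 1702 chosen in heart and lung, 93.9% passed in the 3 liver libraries and 19 (1.12%) exceeded it in all 3. The tissue left out had a mean above 25% at 2, 2 and 7 of these CpGs for heart, lung and liver, and in none of them was the mean above 50%. These few CpGs are not members, by the rule. The CpGs that passed were the 1598 members each time, so these shares use the values of the rule and are a description. The horses of the tissue left out also stayed in the choice through their other tissues.

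The surroundings of the members held a measure that the rule did not use, the level of other CpGs that lacked 10 reads in at least 1 library. Within 1 to 50 bp of a member they averaged 6.70% ± 2.81 in heart, 6.14% ± 1.79 in lung and 5.84% ± 1.69 in liver (SD over libraries). At 51 to 100 bp the means were 13.4%, 11.7% and 11.4%. Farther out they did not climb evenly, with 19.3%, 17.4% and 22.7% at 201 to 300 bp and 17.3%, 14.8% and 10.6% from there to 500 bp, where liver of horse 2 had only 5 CpGs. At 501 to 1000 bp the means were 24.6%, 23.6% and 23.2%, at 1001 to 2000 bp 41.1%, 43.5% and 37.6%, and at 5001 to 20000 bp 57.1%, 58.3% and 56.8%. Counting only CpGs over 2 kb from a dense window, the means at 5001 to 20000 bp were 65.2%, 67.2% and 65.8%, against 74.3%, 75.1% and 74.0% for all such CpGs at any distance. The low level thus extended past the members in each tissue. The nearest of these CpGs can share reads with a member, so their levels were not independent of the choice. CpGs of full depth that were not members started higher, at 24.6%, 25.9% and 25.7% within 50 bp, as they had been kept out of the members by their level.

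**Figure D4:**
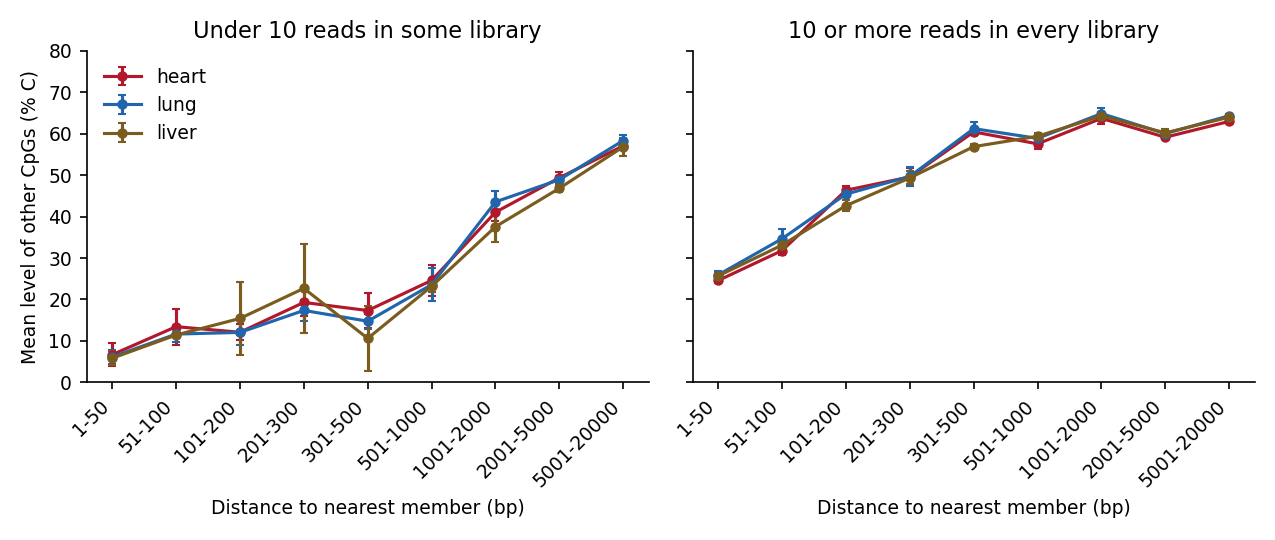
Mean level (% C, tissue mean ± SD over libraries) of CpGs that are not members by distance to the nearest member (bp), for CpGs with fewer than 10 reads in some library (left) and for CpGs with 10 or more reads in all (right). On the left the means lie at 5.84% to 6.70% within 50 bp, do not climb evenly up to 500 bp, and reach 56.8% to 58.3% at 5001 to 20000 bp.

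Seen from each member, the neighbours within 100 bp were mostly unmethylated too. Their mean level was 10% or less for 1472 of the 1591 members with a neighbour that was read (92.5%), against 1.93% of the other CpGs of the same place. It lay between 10% and 50% for 63 members and at 50% or more for 56 (3.52%). With neighbours of lower depth only, whose levels the rule did not use, 89.3% of 736 members had neighbours at 10% or less and 4.08% at 50% or more. Such neighbours can share reads with the member, so they are not independent of the choice.

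The 56 members with methylated neighbours lay on 20 chromosomes. Of these, 48 were alone in their region, which methylated neighbours favour by construction, and their median window held 9 listed CpGs against 18 for members with unmethylated neighbours. Only 2 were read on both strands. At a member read on one strand, a T in the animals' own sequence cannot be told apart from an unmethylated C in these files. This limit is not confined to the 56, since 673 members were read only on the forward strand and 689 only on the reverse. How many of the 56, or of all members, are of that kind was not tested. The member at chr10:42856450 had 5 methylated of 388 reads (1.29%, 95% exact interval 0.420 to 2.98), while its 6 neighbours averaged 97.2%. The member at chr12:31429422 had 0 of 272 reads, which allows 1.10%, with 2 neighbours at 96.8%. Both were chosen for naming after their values were seen.

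A few members differed from the rest in read depth. In 20 members (1.25%), in 5 regions on chromosomes 1, 21 and 27, the mean depth of the heart libraries, scaled to their autosomal reads, was more than 4 times that of both other tissues. Over all 68147 CpGs of full depth only 21 (0.0308%) did, and 20 of them were members. The ratio was 9.07 to 13.4 at these 20, while the highest ratio at any other member was 1.31. They held 48.4% of all reads at members. The positions were chr1:140072620-140072667 (3 members), chr21:44465537-44465577 (3), chr21:44472236-44472296 (3), chr21:44472548-44472599 (4) and chr27:37571295-37571471 (7).

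Depth at the members on chromosomes 1 and 21 had the same order of horses as the mitochondrial genome in each tissue. At the 3 members on chromosome 1, reads per CpG per 1000000 autosomal reads were 811, 577, 870 and 1323 in heart of horses 1 to 4, 37.5, 35.0, 115 and 202 in lung, and 54.6, 147 and 83.7 in liver of horses 1, 2 and 4. At mitochondrial positions the values were 487, 447, 595 and 1100 in heart, 31.8, 26.2, 84.7 and 160 in lung, and 39.7, 123 and 71.0 in liver. Horse 4 was highest in heart and lung, and horse 2 was highest in liver, at both places. The highest count at any listed position was 65535 reads in heart of horses 1, 2 and 4 alike. It was 54877 in heart of horse 3 and 12549 or less in lung and liver. A highest count shared by libraries can be a ceiling, and whether it lowered the mitochondrial means in heart was not tested. On chromosome 21 heart was at 485, 372, 489 and 856, lung between 19.2 and 109, and liver at 35.1, 89.2 and 50.4. On chromosome 27 the means gave another order, but they include 1 member with uneven reads among libraries, described below. By these means horse 3 was highest in heart (238, against 219, 67.8 and 156 in horses 1, 2 and 4). It was also highest in lung (34.2, against 3.73, 3.75 and 21.2). Heart exceeded lung by 9.20 times on chromosome 1, 10.6 times on chromosome 21, 10.8 times on chromosome 27 and 8.68 times in mitochondrial reads, against 1.08 times at the other members. The level of the 20 members in heart was 0.344% to 0.392%, where mitochondrial reads in heart had 0.336% to 0.373%. Nuclear genomes are known to hold copies of mitochondrial DNA. Whether mitochondrial reads contributed to these positions was not tested, as that needs the genome sequence.

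**Figure D5:**
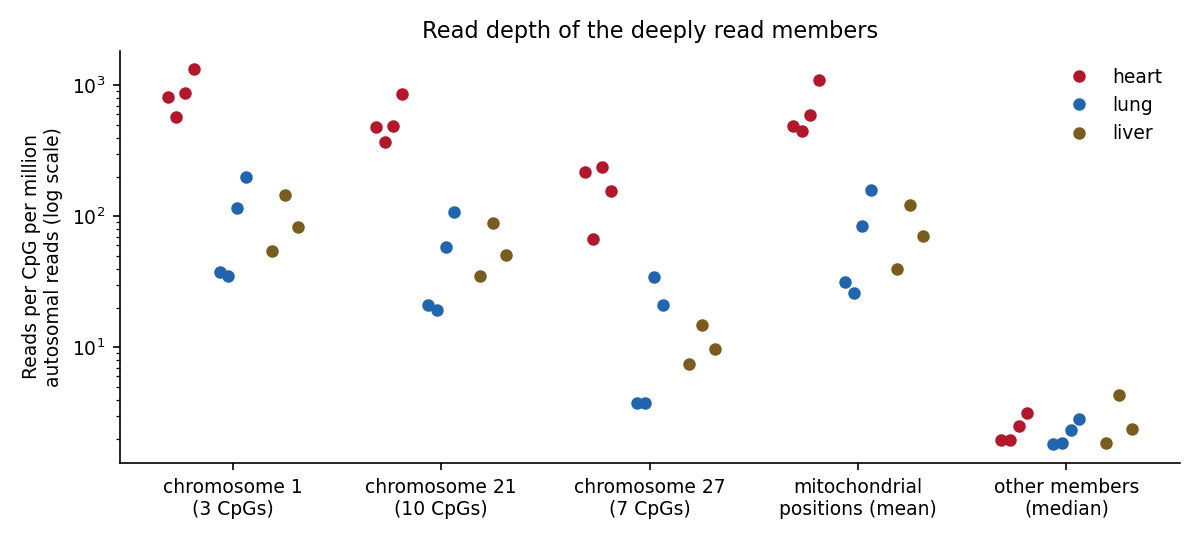
Reads per CpG per 1000000 autosomal reads (log scale) in each library at the deeply read members of chromosomes 1, 21 and 27, at mitochondrial positions (mean) and at the other members (median). Heart exceeds lung and liver in the first 4 classes, and at the other members all libraries lie between 1.82 and 4.30.

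One member of this kind, at chr27:37571357, was also uneven among libraries of a tissue. It had 21597 reads in heart of horse 1, 10394 in heart of horse 3 and 1109 in lung of horse 3, but 576 and 501 in heart of horses 2 and 4. These counts enter the chromosome 27 means above, so the order of horses there rests partly on this member. At chr27:37571431 heart of horses 1 to 4 had 4003, 2617, 1859 and 2006 reads. This was close to the 4112, 2511, 1861 and 2077 reads at chr21:44465537. The 20 members weighed on levels pooled over reads. Pooled over all members, heart was at 0.556% ± 0.0562, lung at 1.16% ± 0.134 and liver at 1.07% ± 0.129, and without the 20 the values were 0.941% ± 0.0811, 1.17% ± 0.129 and 1.03% ± 0.0958. The mean that counts each member once hardly depended on them, with heart at 0.777% ± 0.0318 without them.

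Differences between tissues were tested at CpGs within 1000 bp of a member that were not members themselves. Calls required a difference of at least 25 percentage points and an adjusted p under 0.01. No member was called in any comparison, as the rule requires. In lung against heart, 5 of 852 nearby CpGs (0.587%) were called, where 2.71% of all tested CpGs were. In lung against liver, 15 of 705 (2.13%) were called against 3.82%, and in heart against liver, 18 of 727 (2.48%) against 5.84%. The shares near members were below the background in each comparison. The sets are not alike, since the nearby set leaves out the members, which were low in every library, while the background holds them. The nearby shares thus rest partly on values the rule used and are a description. Nearby CpGs of full depth averaged 32.3% to 33.6% by tissue, against 75.1% to 75.8% over the CpGs of the members' place that were not members, and the part of this in the lower shares was not tested. In lung against heart, 3 calls were higher and 2 lower in lung, where the backgrounds were 1.54% and 1.17%. In lung against liver, 9 were higher in lung and 6 lower (backgrounds 2.27% and 1.55%), and in heart against liver 12 were higher in heart and 6 lower (backgrounds 3.0% and 2.84%). The calls fell on 24 CpGs beside 18 regions.

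These counts depended on single libraries and on the pairing by horse, and so did the counts over all tested CpGs. In lung against heart 9 nearby CpGs (1.05%) were called without lung of horse 2 and 9 (1.02%) without heart of horse 3, where 1.87% and 2.37% of all tested CpGs were. In lung against liver the count was 6 (0.850%) without liver of horse 1, against 2.23% of all. In heart against liver it was 28 of 1006 (2.78%) without liver of horse 2, against 4.57% of all. With horse as a block, the same test called 0 CpGs anywhere in the genome in each comparison, so its 0 near members is no result about the members (112, 64 and 103 nearby CpGs had an unadjusted p under 0.05). The block in edgeR's quasi-likelihood test gave 7, 12 and 15 calls near members, or 0.822%, 1.70% and 2.06%, against 2.56%, 3.32% and 4.66% of all tested CpGs.

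Some called CpGs lay beside a single member. At chr13:23452968, 20 bp from a member with 0.157% methylated reads, heart was at 35.1%, 50.6%, 29.3% and 51.4%, lung at 79.2%, 88.7%, 100% and 81.2%, and liver at 100%, 100% and 77.8%. All heart values were below all others, and the depth-weighted difference was 46.6 points for lung against heart (quasi-likelihood test, adjusted p = 2.0e-05) and -53.1 points for heart against liver (adjusted p = 4.97e-05). At chr29:19242024, 33 bp from a member with 0 methylated reads, heart was at 75.7%, 75.9%, 84.5% and 72.5%, lung at 27.6%, 40.7%, 45.8% and 26.7% and liver at 55.9%, 55.9% and 49.4% (lung against heart -42.7 points, adjusted p = 2.94e-06 in the quasi-likelihood test). The tissues did not overlap there, with liver between the others. Lung also differed from heart at chr12:9827311 (38.6% ± 9.87 against 7.93% ± 4.52) and chr11:18773528 (37.5% ± 12.3 against 76.5% ± 7.08). The latter lay beside a region of 2 members.

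The largest difference near members, 60.1 points in heart against liver at chr10:16330080 (adjusted p = 1.22e-05 in the quasi-likelihood test), belonged to a run of 4 called CpGs from 16330016 to 16330080. They lay beside the 4 members at chr10:16329868-16329923, which had 0.565% methylated reads. At chr10:16330033, 110 bp from the nearest member, lung was at 75.0%, 71.1%, 57.1% and 76.2%, heart at 70.4%, 84.8%, 54.5% and 66.7% and liver at 26.0%, 30.0% and 37.1% (lung against liver 40.1 points, adjusted p = 0.000698 in the quasi-likelihood test). At chr10:16330080 heart had a mean of 68.1% ± 9.81, lung 40.8% ± 7.51 and liver 12.9% ± 8.15. The corresponding means at chr10:16330066 were 89.8% ± 9.37, 72.5% ± 13.7 and 42.7% ± 12.7. Liver was the lowest tissue at these 3. Depth in liver of horse 2 was 10 reads at each of them, and CpGs this close can share reads. It was the highest at chr6:75812129, 68 bp from a member, with 60.1% ± 1.41 against 21.9% ± 16.2 in lung and 17.3% ± 7.40 in heart.

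Called CpGs differed in the spread among horses. At chr13:6783095 lung was at 54.5%, 80.8%, 80% and 77.3% and liver at 32.4%, 46.2% and 20.8%, an SD above 12 points in both tissues. At chr3:64289750 the tissues compared were tighter, with lung at 25.6% ± 7.16 and liver at 58.6% ± 6.06, while heart held 25%, 62.5%, 65.2% and 30.4%, in a pair of low and a pair of high animals.

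The mean level of the surroundings was 33.6% ± 0.978 in lung, 32.3% ± 0.618 in heart and 32.9% ± 0.492 in liver, over 667 CpGs of full depth within 1000 bp that were not members. These CpGs were kept out of the members by their level in the same libraries, so their differences rest partly on values the rule used and are a description. Lung exceeded heart by 1.23 points (exact permutation test, two-sided, p = 0.0571, adjusted over 12 tests 0.137) and liver by 0.702 points (p = 0.286 by exact permutation, adjusted 0.429), and heart minus liver was -0.525 points (p = 0.343 by exact permutation, adjusted 0.457). Within 1 to 100 bp of a member, lung exceeded heart by 1.54 points at an exact p of 0.0286 (adjusted 0.137). Weighted by read depth, the differences within 1000 bp were 6.27 points (exact permutation p = 0.0286, adjusted 0.0980), 3.12 points (exact p = 0.0571) and -3.15 points (exact p = 0.0571), larger than the means over CpGs.

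The smallest p these designs allow is 0.0286 for 4 against 4 libraries and 0.0571 for 4 against 3, and no adjusted p over the 12 tests could be below 0.0571, so they could not pass at 0.05 whatever the levels. CpGs with fewer than 10 reads in some library, whose levels the rule did not use, gave -1.51 points in lung minus heart (exact permutation p = 0.171, adjusted 0.800), -0.387 in lung minus liver and 1.12 in heart minus liver. The signs thus differed from those at CpGs of full depth. Each library here averaged only the CpGs with 10 or more reads in it. The libraries therefore averaged different CpGs, and these differences mix the choice of CpGs with their level.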

How the data were processed

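RRBS libraries of heart, lung and liver were compared. According to the study's methods, reads were filtered for quality and mapped to EquCab3.0, and those with a unique place were kept. The submitters' processing notes name FastQC and BSMAP, whose versions are not given in these sources. The authors deposited 1 file per library, without pooling, with a row per CpG and strand. Each row gives a whole-number count of reads (5 or more in every row of the deposited files) and the percent of those reads that showed C or T, as the authors calculated it. Here the 2 strands of a CpG were summed. Methylated reads were the read count times the percent of C, rounded to whole reads. This product was a whole number within 0.05 points for at least 99.8% of the positions of each library. Reads may be PCR copies, so intervals and floors (3 reads) cover counting error only. For regions, reads were summed over members and a read can count more than once, so intervals are too narrow and floors too low.

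Members were found by the rule given in the results, and members and lists were chosen with earlier results of these data known. Nearby CpGs were tested in a fit over every CpG that had 10 or more reads in each library of both tissues, 116927 in lung against heart, 73050 in lung against liver and 77277 in heart against liver. Methylated and unmethylated reads were fitted by logistic regression on tissue. The Pearson dispersion, never taken below 1, was moderated with limma 3.58.1 (squeezeVar). P-values came from a quasi-likelihood F test and were adjusted by Benjamini-Hochberg over all tested CpGs. The thresholds are those of the study's methods. The test was also run on simulated counts with a fixed spread among libraries and no likeness within horses. That run cannot tell how the test behaves with tissues paired by horse. Alternatives used edgeR 4.0.16, a block for horse, other depths, limits and distances, and each library left out in turn. Replicate numbers in the labels are horse numbers, so tissues are paired by horse. Deviations from tissue means correlated at 0.0512 to 0.251 within horses for lung and heart, 0.190 to 0.223 for lung and liver and 0.0519 to 0.185 for heart and liver, and at 0.0595 at most between horses. Over 15 pairs of libraries of a tissue, the chi-square per degree of freedom of their counts was 1.43 to 2.15, above sampling noise, and each library was counted as 1 sample. Mean levels were compared by exact permutation over libraries. Regions named are the 8 with the most members and the 4 farthest from a dense window with 3 or more members, and nearby CpGs named are the 2 called with the largest absolute difference in each comparison and direction. The software was R 4.3.3, Python 3.11.15, numpy 2.4.6, scipy 1.17.1, pandas 2.3.3 and, for figures, matplotlib 3.10.9.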

Additional observations from a re-analysis of the deposited data

Results flagged for a closer look

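Within groups of 4 libraries, 96 sets of values were checked for a library far from the other 3, and 9 stood out. Chance flags about 1 in 20 such groups. Lung of horse 3 stood apart in the share of CpGs at 10% or less when it was left out of the choice (95.3%) and at chr3:78087587-78087713 (2.27%, against 0.585% to 0.870% in the other lung libraries). Lung of horse 1 did so at chr5:44380804-44380980 (0.597%), at chr17:47337596-47337646 (0.532%), where the other 3 lung libraries were at 0 in both regions, and at chr13:6783095 (54.5%). Heart of horse 1 at chr27:29387396-29387441 (0.741%) and heart of horse 2 at chr17:47337596-47337646 (0.741%) each held the few methylated reads of the heart libraries. In heart of horse 3 the CpGs lacking depth in some library averaged 24.2% at 201 to 300 bp from a member and 30.2% at 501 to 1000 bp, above the other heart libraries.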

How the results depend on the processing

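The number of members was 1598 and became 712 and 2568 with dense windows of 20 and 40 CpGs, 1047 at 5% or less and 303 at 20 reads, as those rules admit fewer or more CpGs. Leaving out each library in turn gave 1610 to 2686, the latter without liver of horse 2. The share at or below the limit in a left-out library was 97.0% when the limit was 5% for both choice and reading. It was 96.8% at a limit of 10% with the whole tissue left out. In the order heart, lung and liver, the level at members was 0.556%, 1.16% and 1.07% weighted by depth, 1.01%, 1.24% and 1.07% with each region counted once, 1.07%, 1.47% and 1.24% at 20 reads and, in an alternative added after seeing the data, 0.941%, 1.17% and 1.03% weighted by depth without the 20 members deeper in heart. Without single libraries it was 0.763% to 0.784%, 0.980% to 1.07% and 0.831% to 0.947%.

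Calls near members, 5, 15 and 18 in the order used for the tests, became 2, 2 and 3 at 20 reads, where fewer CpGs were tested and 2.77%, 3.02% and 4.41% of those anywhere were called, and 0, 0 and 0 with horse as a replicate block, which called 0 CpGs anywhere. Lung against heart gave 9 at an adjusted p below 0.05, where 4.01% of all tested CpGs were called. The cause of the loss with the block was not tested. Leaving out libraries gave 5 to 9, 6 to 15 and 14 to 28. The differences of mean level, whose adjusted p could not go below 0.0571, were 6.27, 3.12 and -3.15 points weighted by depth and changed sign at the CpGs with fewer than 10 reads in some library, added after seeing the data (-1.51, -0.387 and 1.12 points), and for lung against liver at 20 reads (-0.101), and the cause was not tested. Leaving out libraries gave 0.776 to 1.53, 0.251 to 1.00 and -0.780 to -0.220 points. Paired by horse, with horse 3 left out where liver was compared, the differences were 1.23, 0.251 and -0.582 points, and with tissues permuted within horses the smallest p possible was 0.125 for 4 pairs and 0.25 for 3. Depth in liver of horse 2 limits how many CpGs could be counted.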
